A study of Mus musculus with 14 samples.

Results

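The nuclear genes of respiratory complex I were followed in whole mouse kidney: all protein-coding genes whose symbol starts with Ndufa, Ndufb, Ndufc, Ndufs, Ndufv or Ndufaf. The rule gave 46 of the 47729 genes in the count files. They comprise 38 genes named as structural subunits and the 8 assembly factor genes Ndufaf1 to Ndufaf8, and all 46 passed the filter on low counts. The data are counts of messenger RNA from 14 libraries in 4 groups: 3 from untreated wild-type kidney (WT normal), 4 from wild-type kidney after 7 days of unilateral ureteral obstruction (WT UUO), 3 from untreated kidney labelled SMOC2 transgenic (SMOC2 normal) and 4 from obstructed kidney with that label (SMOC2 UUO). Unilateral ureteral obstruction is the surgical closure of the ureter of 1 kidney and is used as a model of kidney fibrosis. For these groups the sources used here give neither strain nor age of the animals, nor the promoter that drives the transgene. All samples also carry a protocol text in which male Balb/c mice receive folic acid. It is at odds with their genotype and treatment labels, and the groups follow the titles. Whether every library stems from a different animal is not stated, and the tests therefore rest on the variation among libraries, which may be technical.

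Complex I is the entry point of the mitochondrial respiratory chain. It takes electrons from NADH, passes them along a flavin and a row of iron-sulfur clusters in an arm that stands in the matrix, hands them to ubiquinone, and pumps protons through an arm that lies in the inner membrane. Its core subunits carry out these steps and are shared with bacteria. The remaining, supernumerary subunits surround the core, and the assembly factors help to build the enzyme without staying in it. The hydrophobic core of the membrane arm is encoded in mitochondrial DNA and all other subunits in the nucleus. Tubule cells of the kidney, above all those of the proximal tubule, are rich in mitochondria and depend on this chain for the transport of salt and nutrients.

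Promoters of 4 members are shown because these genes span the range of change described below: in wild type Ndufa9 had the second-largest fall of the structural genes, Ndufaf4 had the largest of the assembly factors, Ndufb6 an intermediate fall, and Ndufaf2 had the smallest of all members that fell. The sequences are the bases before the transcription start in RefSeq windows of build GRCm38.p6, read 5' to 3' on the strand of the gene. Bases in annotated exons were left out, which cut the stretch of Ndufaf2 to 105 bases. Capitals mark the matches of the NRF1 motif TGCGCA (in Ndufa9, Ndufaf4 and Ndufb6) and of the ETS motif CCGGAAG, which stands on the opposite strand in Ndufb6. The stretch of Ndufaf2 holds no match. Among all members the NRF1 letters are rarer (12 of 42 windows) than among these 4.
Ndufa9, chr6:126849145-126849394, minus strand: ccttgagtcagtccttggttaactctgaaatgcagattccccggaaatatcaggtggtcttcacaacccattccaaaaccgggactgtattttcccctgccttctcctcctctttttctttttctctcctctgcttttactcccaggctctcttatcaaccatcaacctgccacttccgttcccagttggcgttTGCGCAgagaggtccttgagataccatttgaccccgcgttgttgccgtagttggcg
Ndufaf4, chr4:24897833-24898082, plus strand: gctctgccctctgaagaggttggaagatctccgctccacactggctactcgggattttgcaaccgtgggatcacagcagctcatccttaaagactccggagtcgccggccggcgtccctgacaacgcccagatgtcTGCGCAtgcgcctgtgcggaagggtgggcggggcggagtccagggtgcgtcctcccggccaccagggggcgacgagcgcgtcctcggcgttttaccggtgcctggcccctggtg
Ndufb6, chr4:40279422-40279671, minus strand: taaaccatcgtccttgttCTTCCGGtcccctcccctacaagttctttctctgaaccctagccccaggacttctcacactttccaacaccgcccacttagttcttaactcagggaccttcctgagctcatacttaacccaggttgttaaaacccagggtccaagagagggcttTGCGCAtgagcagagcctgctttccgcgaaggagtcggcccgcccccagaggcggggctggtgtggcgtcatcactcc
Ndufaf2, chr13:108158626-108158730, minus strand: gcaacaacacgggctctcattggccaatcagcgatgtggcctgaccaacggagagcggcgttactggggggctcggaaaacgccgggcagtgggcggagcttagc

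NRF1, GABPA of the ETS family and YY1 are transcription factors known to bind promoters of respiratory chain genes. RefSeq windows of 300 bases, 250 before and 50 after the start, were at hand for 40 of the 46 members, with 42 windows in all. Ndufa5 and Ndufa7 have overlapping windows that were counted separately, and both windows of Ndufa5 hold the NRF1 letters. The NRF1 letters TGCGCA stood on either strand in 12 of the 42 windows (28.6%), against 11.9% of the 16119 windows of genes tested and 7.76% of all 32851 windows. The YY1 letters AAGATGG stood in 8 windows of members (19.0%), against 6.45% of windows of genes tested. The ETS letters CCGGAAG were no more frequent in members (14.3%) than in genes tested (14.7%). The letters AAGGTCA, bound by estrogen-related receptors, stood in 3 windows (7.14%, against 3.57%). ACGTG or GCGTG, the core letters of the hypoxia response element, stood in 59.5% of the members' windows and 57.5% of those of genes tested. Of the 7 windows of assembly factors, 1 held the NRF1 letters (Ndufaf4). These matches describe letters in a fixed window and were not tested.

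Total counts per library ran from 19483994 to 30033405. Proximal tubule markers were present in every library, and all 6 fell after obstruction under both labels: their summed level went from 13400 to 16300 CPM (counts scaled to a common library size) in WT normal to 1120 to 3050 CPM in WT UUO. All 4 fibroblast markers rose under both labels, from a sum of 118 to 321 CPM to one of 1800 to 3100 CPM in wild type. Skeletal muscle markers were at 0 to 0.718 CPM in sum in all libraries. Smoc2, the gene of the transgene, was at 25.2 CPM in WT normal and 21.8 CPM in SMOC2 normal, and at 147 CPM in WT UUO and 96.1 CPM in SMOC2 UUO. Every SMOC2 UUO library (83.9 to 124 CPM) was below every WT UUO library (131 to 158 CPM). This difference did not pass the test (log2 -0.61, edgeR adjusted p = 0.389). The libraries labelled transgenic thus show no excess of Smoc2, and differences between labels are given as such. The normal groups also differed in the sum of 3 injured tubule markers, named after their values were seen. It was 10.2 to 151 CPM in WT normal and 268 to 346 CPM in SMOC2 normal. None of these markers passed the test between the labels (smallest edgeR adjusted p = 0.292). The part of this difference in the label comparisons was not tested.

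In normal kidney the structural genes were expressed at a far higher level than the assembly factors. In WT normal the median level per length was 232 CPM per kilobase of transcript for the 38 structural genes and 19.6 CPM per kilobase for the 8 assembly factors. Ndufa4 (1100 CPM per kilobase) and Ndufa6 (678 CPM per kilobase) were the highest. Assembly factors ran from 14.4 CPM per kilobase (Ndufaf6) to 37.3 CPM per kilobase (Ndufaf8). Structural genes within or below that range were Ndufb2 at 16.9, Ndufb4 at 23.2, Ndufs5 at 31.1, Ndufab1 at 36.2 and Ndufa4l2 at 5.89 CPM per kilobase. For Ndufb2 and Ndufab1 (means of 40.9 and 88.6 CPM) this level rests on long median transcripts of 2413 and 2447.5 bases. Ndufb4, Ndufs5 and Ndufab1 have a near-identical copy elsewhere in the genome, so their counts are uncertain. In WT UUO the medians were 96.8 CPM per kilobase for structural genes and 11.9 CPM per kilobase for assembly factors.

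After obstruction of wild-type kidney, 45 of 46 members fell and none rose. Of the structural genes 37 of 38 were lower, with a median log2 change of -1.22 (2.33-fold lower), and all 8 assembly factors were lower, with a median of -0.81 (1.75-fold lower). The exception was Ndufa4l2. Of all 17926 genes tested, 61.1% changed in this comparison by the edgeR quasi-likelihood test at an adjusted p under 0.05, 31.3% were higher and 29.8% lower, and the median log2 change was 0.0455. In 37 of 38 structural genes and 8 of 8 assembly factors every obstructed library was below every normal one, as in 29.5% of all genes tested. In whole tissue, fewer cells of a type and less RNA per cell cannot be told apart. The fall of the proximal tubule markers given above moved with that of the members. So did the 4 markers of loop of Henle and distal tubule (median log2 -2.34), 4 of collecting duct (-1.91) and 3 of podocytes (-0.67). Of 3 endothelial markers 1 was lower, while all 4 macrophage and 3 injured tubule markers were higher. The part of these shifts in the changes of the members was not tested.

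The 7 nuclear core subunits fell together, with a median log2 change of -1.34. Ndufs1 (chromosome 1, 63143596 to 63176833, mm10), the largest subunit of the matrix arm and the carrier of several iron-sulfur clusters, was at 347, 381 and 355 CPM in WT normal and at 95.7, 115, 96.0 and 129 CPM in WT UUO. Every obstructed library was far below every normal one, and the log2 change of -1.73 (SE 0.10, edgeR adjusted p = 2.40e-08, 3.32-fold) was the largest fall of all members. Ndufv1, which binds the flavin and NADH, was at 393, 455 and 363 CPM in WT normal and at 135, 171, 137 and 161 CPM in WT UUO (log2 -1.42, edgeR adjusted p = 8.12e-08). Ndufv2, its partner with a further iron-sulfur cluster, was at 276, 353 and 298 CPM against 116, 129, 115 and 128 CPM (log2 -1.34). In both genes the groups lay apart and WT normal library 2 was the highest.

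Ndufs7 carries the last iron-sulfur cluster before ubiquinone. It was at 161, 207 and 158 CPM in WT normal against 57.9, 74.2, 73.5 and 80.7 CPM in WT UUO (log2 -1.29, edgeR adjusted p = 1.47e-06). The groups did not overlap. Ndufs3, a core subunit of the matrix arm with no redox centre, was at 133, 168 and 149 CPM against 53.1, 68.4, 53.6 and 61.9 CPM (log2 -1.34), with a near-identical stretch in the gene Gm12251. Ndufs8, which carries iron-sulfur clusters, was at 184, 241 and 202 CPM against 88.4, 103, 84.4 and 94.7 CPM and had the smallest fall of the 7 (log2 -1.17, edgeR adjusted p = 5.06e-07). The 7 core genes therefore spanned -1.73 to -1.17 on the log2 scale, a spread set mainly by Ndufs1.

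The 28 supernumerary subunits, with Ndufa4, Ndufa4l2 and Ndufab1 left aside, were all lower, with a median log2 change of -1.17 and a range of -1.48 to -0.70. The 2 arms of the enzyme did not stand apart: the 16 genes of the matrix arm and the 19 of the membrane arm had the same median, -1.24. Ndufa9, a matrix-arm subunit beside the quinone pocket, was at 195, 234 and 206 CPM in WT normal and at 70.7, 85.2, 67.0 and 80.9 CPM in WT UUO (log2 -1.48, edgeR adjusted p = 4.95e-08). Ndufb10 of the membrane arm was at 233, 265 and 238 CPM against 75.2, 104, 78.3 and 99.4 CPM (log2 -1.46, edgeR adjusted p = 5.87e-07). In both, the obstructed libraries were at less than the level of any normal library by a wide margin.

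The smallest falls among structural genes were those of Ndufa7, Ndufb2 and Ndufa3. Ndufa7, a matrix-arm subunit, was at 124, 150 and 118 CPM in WT normal and at 73.6, 83.9, 84.9 and 79.2 CPM in WT UUO (log2 -0.70, SE 0.10, edgeR adjusted p = 4.16e-05). Ndufb2 was at 35.1, 46.8 and 40.6 CPM against 22.2, 24.6, 19.6 and 24.4 CPM (log2 -0.85). Ndufa3 was at 118, 158 and 122 CPM against 67.4, 80.4, 77.2 and 66.5 CPM (log2 -0.86). These genes still showed no overlap between the groups. Ndufs4, an accessory subunit of the matrix arm whose loss in mice gives a model of mitochondrial disease, fell from a mean of 104 CPM to 56.5 CPM (log2 -0.88). In all, 29 of 38 structural genes fell at least 2-fold in WT UUO (log2 of -1 or below), against 2 of 8 assembly factors. The share of all genes tested that fell this far was not counted, so these counts compare the 2 classes only.

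**Figure D1:**
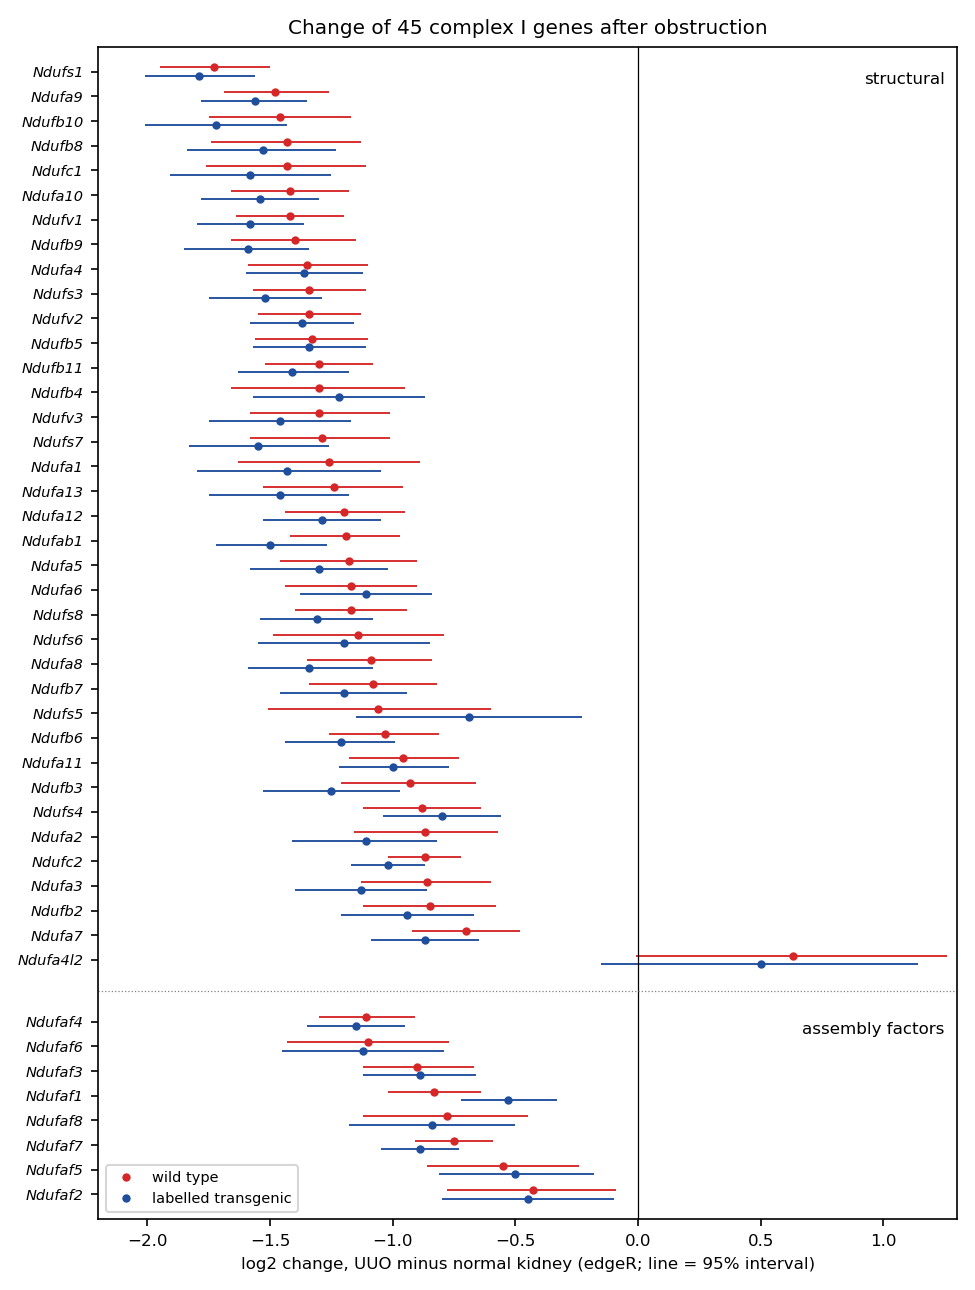
Log2 change from normal to obstructed kidney (horizontal axis) of 45 of the 46 genes, with 95% intervals from edgeR, for wild type in red and the libraries labelled transgenic in blue. The structural genes stand above the dotted line, sorted by the wild-type change, from Ndufs1 at -1.73 to Ndufa4l2 at 0.63, and the 8 assembly factors below it, from -1.11 to -0.43.

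All 8 assembly factors fell in WT UUO, by less than most structural genes. Ndufaf4, a factor of early matrix-arm assembly that works with Ndufaf3, was at 64.7, 73.6 and 60.5 CPM in WT normal and at 26.8, 30.1, 31.0 and 35 CPM in WT UUO. Its fall was the largest of the class (log2 -1.11, SE 0.09, edgeR adjusted p = 2.06e-07). Ndufaf3 was at 26.8, 36.9 and 28.4 CPM against 16.1, 16.6, 16.4 and 16.8 CPM (log2 -0.90, edgeR adjusted p = 5.69e-06). Both genes lay apart between the groups, with the obstructed libraries of Ndufaf3 in a narrow band.

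Ndufaf6, at low counts, was at 15.9, 17.5 and 13.5 CPM in WT normal and at 5.78, 8.55, 7.39 and 7.39 CPM in WT UUO (log2 -1.10, edgeR adjusted p = 2.48e-05). Ndufaf1, part of the complex that builds the membrane arm together with Acad9, Ecsit and Tmem126b, was at 32.0, 33.6 and 34.4 CPM against 18.5, 18.5, 18.2 and 19.7 CPM (log2 -0.83, edgeR adjusted p = 2.17e-06). The obstructed libraries of Ndufaf1 were again close together. Ndufaf8 was at 20.1, 26.4 and 21.0 CPM against 12.5, 11.0, 13.9 and 14.8 CPM (log2 -0.78, edgeR adjusted p = 0.000632). Ndufaf7, a methyltransferase of the matrix, was at 41.1, 43.3 and 38.8 CPM against 23.8, 25.1, 23.9 and 24.7 CPM (log2 -0.75, edgeR adjusted p = 1.09e-06).

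The smallest falls were those of Ndufaf5 and Ndufaf2. Ndufaf5, a hydroxylase that modifies Ndufs7, was at 18.9, 24.5 and 21.8 CPM in WT normal and at 15.8, 11.4, 15.7 and 16.3 CPM in WT UUO (log2 -0.55, edgeR adjusted p = 0.00434). Ndufaf2, a late-stage factor related to the subunit Ndufa12, was at 16.7, 25.1 and 16.9 CPM against 14.9, 14.4, 14.6 and 14 CPM (log2 -0.43, SE 0.16, edgeR adjusted p = 0.0312). Normal library 2 of Ndufaf2 stood well above the other 2 normal libraries, and these lay only slightly above the obstructed ones. Without that library the log2 change was -0.22 (edgeR adjusted p = 0.237). Of the exon bases of Ndufaf2, 65.6% are shared with a gene on the opposite strand, and how the counting treated strand was not stated.

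The contrast of the classes was seen gene by gene. In WT UUO, 25 of 38 structural genes fell by more than any of the 8 Ndufaf genes. Only Ndufa7 and Ndufa4l2 fell by less than the median Ndufaf gene or not at all. Of the 8 Ndufaf genes, 0 fell by more than the structural median. These counts do not extend to assembly factors with other names, whose log2 changes reached -1.48. Per library, the mean log2 CPM of the structural genes exceeded that of the assembly factors by 2.36 to 2.4 in WT normal and by 1.95 to 2.20 in WT UUO. The corresponding ranges were 2.43 to 2.59 in SMOC2 normal and 1.89 to 2.12 in SMOC2 UUO. The difference was smaller in each of the 8 obstructed libraries than in each of the 6 normal ones. The members were chosen with results of these data known, so this is a description without a test.

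**Figure D2:**
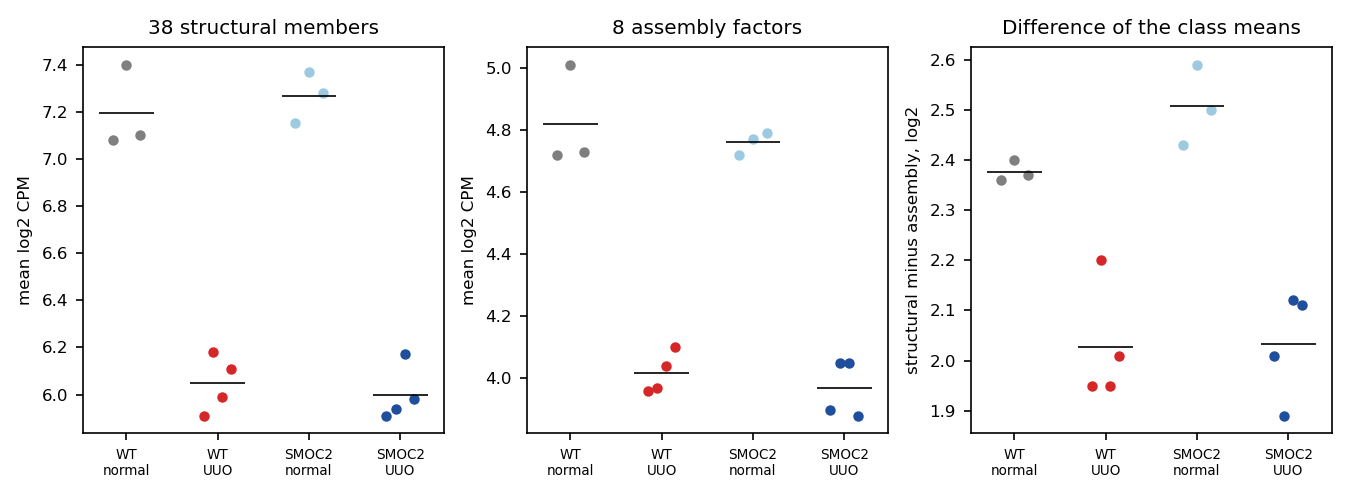
Mean log2 CPM of the 38 structural genes (left) and the 8 assembly factors (middle) and their difference (right, log2) in each of the 14 libraries, with the group mean as a line. The vertical axes do not start at 0. The difference runs from 2.36 to 2.59 in normal libraries and from 1.89 to 2.20 in obstructed ones.

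The 3 genes that are not subunits of complex I alone behaved in different ways. Ndufa4, now counted as a subunit of cytochrome c oxidase (complex IV), was at 432, 595 and 496 CPM in WT normal and at 183, 223, 182 and 210 CPM in WT UUO (log2 -1.35, edgeR adjusted p = 2.56e-07). Ndufab1, the mitochondrial acyl carrier protein that also serves fatty acid and lipoic acid synthesis, was at 81.4, 102 and 82.3 CPM against 34.0, 40.5, 36.6 and 43.7 CPM (log2 -1.19, edgeR adjusted p = 3.93e-07). Both fell like the other structural genes. Without these 3 genes, 35 of 35 structural genes were lower, with a median of -1.24.

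Ndufa4l2 (chromosome 10, 127514967 to 127517154, mm10) is a paralog of Ndufa4, known to be induced by hypoxia and to be expressed in pericytes. It was at 4.94, 5.25 and 6.31 CPM in WT normal and at 6.03, 7.67, 12.1 and 8.16 CPM in WT UUO (log2 0.63, 95% interval -0.01 to 1.26, edgeR adjusted p = 0.0832). In SMOC2 normal it was at 6.26, 6.71 and 3.44 CPM and in SMOC2 UUO at 6.75, 7.17, 11.6 and 5.36 CPM (log2 0.50, edgeR adjusted p = 0.162). It was the only member with a positive estimate under either label, the groups overlapped under both, and library 3 was the highest obstructed library in each. It rose past the threshold under 3 alternatives: with upper-quartile scaling (log2 0.74, edgeR adjusted p = 0.0470), with the replicate number as a block (log2 0.72, edgeR adjusted p = 0.0118) and without WT UUO library 1 (log2 0.76, edgeR adjusted p = 0.0455). It was smaller without WT UUO library 3 (log2 0.41, edgeR adjusted p = 0.250). Under the transgenic label it was 0.24 without SMOC2 UUO library 3 and 0.25 without SMOC2 normal library 4 (edgeR adjusted p = 0.480 and 0.511).

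Of the 7 pericyte and mural cell markers, 4 rose in WT UUO (Pdgfrb from 68.9 to 251 CPM, Notch3, Rgs5 and Cspg4), 1 fell (Abcc9), and Kcnj8 and Higd1b did not pass. Their summed level was 202 to 257 CPM in WT normal and 438 to 539 CPM in WT UUO. Its part in the level of Ndufa4l2 was not tested. Of 16 targets and regulators of the hypoxia response, 2 were higher and 10 lower in WT UUO. The 2 that rose, named for that reason after their values were seen, were Ddit4, a stress-induced inhibitor of growth signalling (15.7 to 67.3 CPM), and Ankrd37 (log2 1.07). Bnip3, Vegfa and Pgk1 fell with log2 changes of -1.36, -1.34 and -1.36.

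**Figure D3:**
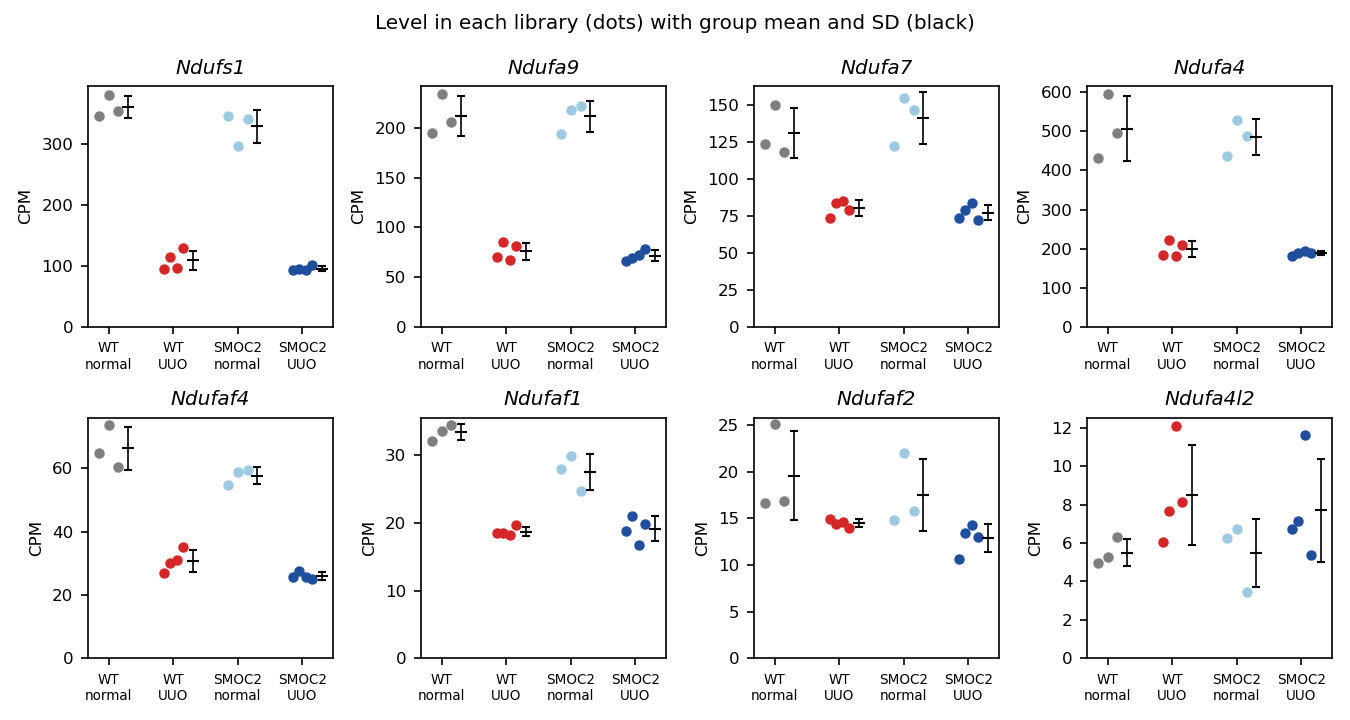
CPM of 8 members in each library, by group, with the mean and SD of the group in black and axes from 0. Ndufs1, Ndufa9, Ndufa7, Ndufa4, Ndufaf4 and Ndufaf1 separate normal from obstructed libraries under both labels, Ndufaf2 does so narrowly, and the groups of Ndufa4l2 overlap.

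In kidney labelled transgenic all members but Ndufa4l2 fell again. Of the structural genes 37 of 38 were lower after obstruction, with a median log2 change of -1.34 and a range of -1.79 to 0.50, and 8 of 8 assembly factors were lower, with a median of -0.86. The share of genes tested that changed was 62.8%, with 32.5% higher, 30.4% lower and a median log2 change of 0.0365. In 37 structural genes and 8 assembly factors every obstructed library was below every normal one, as in 30.1% of all genes tested. In this comparison 28 of 38 structural genes fell by more than any of the 8 Ndufaf genes, while assembly factors with other names reached a log2 change of -1.52.

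The core subunits had a median log2 change of -1.52 in SMOC2 UUO. Ndufs1 was at 347, 297 and 342 CPM in SMOC2 normal and at 92.6, 95.1, 92.8 and 101 CPM in SMOC2 UUO, again the largest fall (log2 -1.79, edgeR adjusted p = 1.61e-08). Ndufv1 was at 412, 431 and 477 CPM against 145, 146, 148 and 149 CPM (log2 -1.58, edgeR adjusted p = 3.19e-08). The 4 obstructed libraries of Ndufv1 were nearly equal. Ndufv2 went from a mean of 287 CPM to 111 CPM, Ndufs3 from 159 to 55.3 CPM, Ndufs7 from 206 to 70.4 CPM and Ndufs8 from 214 to 86.2 CPM. Among the supernumerary genes, Ndufb10 was at 240, 309 and 275 CPM against 74.7, 73.9, 97.0 and 87.8 CPM (log2 -1.72, edgeR adjusted p = 1.26e-07). The smallest falls were those of Ndufs5 (log2 -0.69), Ndufs4 (-0.80) and Ndufa7 (-0.87).

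Ndufs5, a small subunit of the membrane arm, was at 20.8, 10.8 and 9.89 CPM in SMOC2 normal and at 7.87, 8.16, 8.94 and 9.17 CPM in SMOC2 UUO (edgeR adjusted p = 0.0120). SMOC2 normal library 1 was at about the level of the WT normal libraries (15.3, 22.2 and 18.2 CPM), and the other 2 were close to the obstructed ones. Without library 1 the log2 change was -0.27 (edgeR adjusted p = 0.133). The count of Ndufs5 is uncertain, since 319 bases match the gene BC002163 with 99.4% identity.

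The assembly factors kept nearly the order they had in wild type. Ndufaf4 was at 54.6, 58.9 and 59.5 CPM in SMOC2 normal and at 25.8, 27.7, 25.6 and 25.0 CPM in SMOC2 UUO (log2 -1.15, edgeR adjusted p = 1.41e-07). Ndufaf6 had a log2 change of -1.12, Ndufaf7 and Ndufaf3 of -0.89 each and Ndufaf8 of -0.84. Ndufaf1 was at 28.0, 29.8 and 24.7 CPM against 18.8, 21.0, 16.7 and 19.8 CPM (log2 -0.53, edgeR adjusted p = 0.000151), a smaller estimate than in wild type. Ndufaf5 had a log2 change of -0.50 (edgeR adjusted p = 0.00874). Ndufaf2 was at 14.8, 22.0 and 15.8 CPM against 10.7, 13.4, 14.3 and 13.0 CPM (log2 -0.45, edgeR adjusted p = 0.0270). As in wild type, 1 normal library of Ndufaf2 stood above the rest: without SMOC2 normal library 3 its log2 change was -0.25 (edgeR adjusted p = 0.200).

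Between the labels no member passed the test in either state. In normal kidney 0 of 46 changed, where 0.0279% of all genes tested did (0.0223% higher, 0.00558% lower), and the median difference (SMOC2 normal minus WT normal) was 0.10 for structural genes and -0.09 for assembly factors. The structural median was 0.02 without SMOC2 normal library 3 and 0.22 without WT normal library 2. In obstructed kidney 0 of 46 changed, where 0.831% of genes tested did (0.558% higher, 0.273% lower), with medians of -0.04 and -0.06. The 95% intervals of single members extended a median of 0.28 to either side of the estimate in normal and 0.24 in obstructed kidney (log2). The narrowest extended 0.16 and 0.14. Differences smaller than the reach of a member's own interval could not be resolved. At an unadjusted p under 0.05 there were 1 and 2 of 46 members, against 12.8% and 15.2% of all genes tested.

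The member nearest to the threshold in normal kidney was Ndufaf1, with all 3 SMOC2 normal libraries (24.7 to 29.8 CPM) below all 3 WT normal libraries (32.0 to 34.4 CPM) and a log2 difference of -0.28 (95% interval -0.49 to -0.07, edgeR adjusted p = 0.300). Ndufaf4 and Ndufs1 also lay below in all 3 libraries. For Ndufs1 the gap was smaller than the rounding of the values, with 347 CPM in both SMOC2 normal library 1 and WT normal library 1. These 3 of 46 members compare with 8.01% of all genes tested that lay below and 8.84% that lay above without overlap. In obstructed kidney it was Ndufc2, a membrane-arm subunit, at 52.7, 48.4, 52.5 and 55.2 CPM in WT UUO and 44.7, 42.9, 47.6 and 43.3 CPM in SMOC2 UUO. These groups did not overlap, as in 4.43% of all genes tested that lay below and 5.42% that lay above, and the log2 difference was -0.23 (95% interval -0.37 to -0.08, edgeR adjusted p = 0.121).

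Whether the response to obstruction differed between the labels was tested as an interaction, and 0 of 46 members passed, as did 0 of 17926 genes tested (0%), of which 1154 had an unadjusted p under 0.05. The estimates had a median of -0.13 for structural genes, 34 of 38 being negative, and of -0.02 for assembly factors. The median of all genes tested was 0.00883. Of the 38 nuclear subunits of complexes II to V, 34 were negative too, with a median of -0.08. The signs come from the same libraries and are not independent of each other. With single libraries left out the structural median ran from -0.24 (without WT normal library 2) to -0.06 (without WT normal library 1). Ndufaf1 had the smallest p of the members, with a smaller fall in the libraries labelled transgenic (interaction 0.31, 95% interval 0.03 to 0.58, edgeR adjusted p = 0.735). Ndufs5 had the largest estimate (0.37, 95% interval -0.29 to 1.02), which was 0.79 without SMOC2 normal library 1 and 0.17 without SMOC2 normal library 4. DESeq2 called 0 members in the interaction too, and 25 genes in all.

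The size of the fall varied between members in much the same way under both labels, which share no library. Across the 46 members the log2 changes had a Pearson r of 0.94 and a Spearman rho of 0.92, and across the 37 structural genes other than Ndufa4l2 an r of 0.86. This is a description over genes of the same libraries, whose values share the depth and scaling of each library. The level per length in SMOC2 normal and the log2 change in wild type, also from separate libraries, had a rho of -0.48 over the 46 members, with the more abundant genes falling more. Within the structural genes other than Ndufa4l2 the rho was -0.19 and within the 8 assembly factors 0.43.

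**Figure D4:**
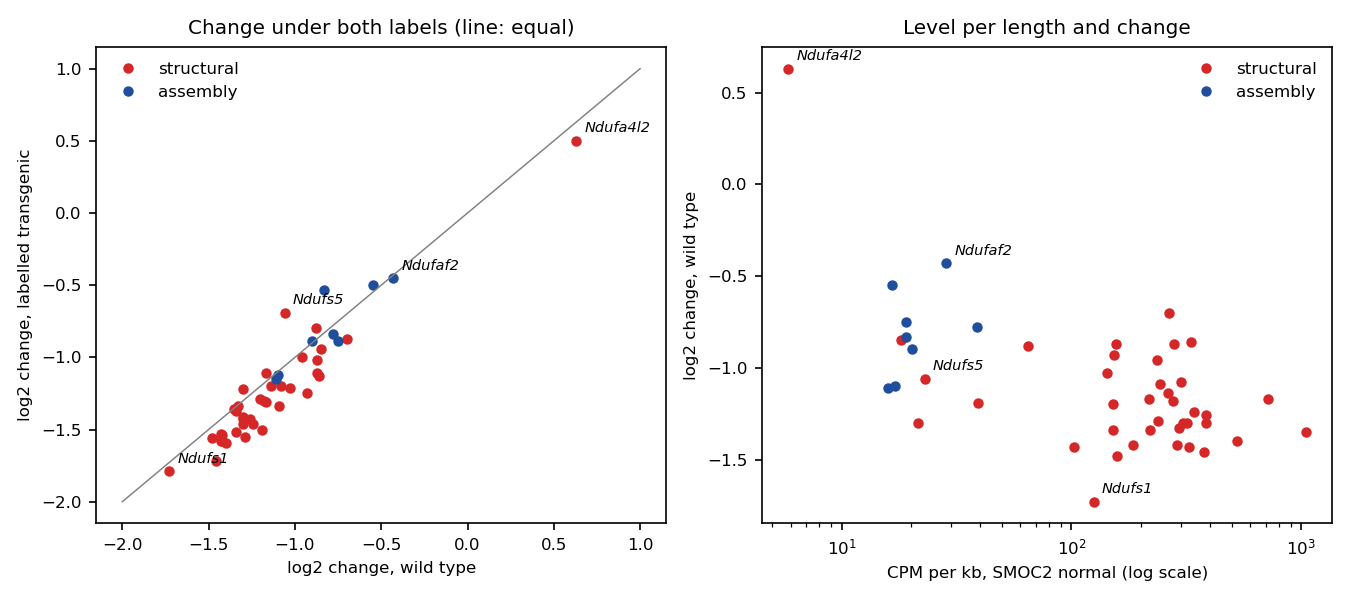
Left, log2 change after obstruction in wild type (horizontal) and in the libraries labelled transgenic (vertical) for 38 structural genes (red) and 8 assembly factors (blue), with a line of equal change. Right, wild-type log2 change against CPM per kilobase in SMOC2 normal on a log axis: the assembly factors form a group of low level, 15.9 to 38.9 CPM per kilobase, and smaller falls.

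Single libraries shifted most members at once. Of the 3 WT normal libraries, library 2 held the highest level of 44 of 46 members, against 38.7% of all genes tested. SMOC2 normal library 1 held the lowest of its group for 38 of 46, against 34.3% of genes tested. Among the SMOC2 UUO libraries, library 3 held the highest for 36 of 46, against 28.3%. The share of counts from mitochondrial DNA was also highest of the group in WT normal library 2 (9.53%, others 8.07% and 8.82%) and in SMOC2 UUO library 3 (4.52%, others 3.54% to 4.10%). In SMOC2 normal library 1 it was 8.97%, between the other libraries of the group (8.11% and 10.04%). Leaving out WT normal library 2 moved the structural median in wild type to -1.09 and left 37 of 38 genes lower.

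Assembly factors of complex I with other names fell too, over a wider range (log2 -1.48 to -0.08 in wild type) than the Ndufaf genes. Of 10 tested, 9 were lower in WT UUO and 9 in SMOC2 UUO, with medians of -0.83 and -0.91. Acad9, which is related to fatty acid dehydrogenases and also a complex I assembly factor, fell from 79.3 ± 4.02 CPM (SD, n = 3) to 28.4 ± 1.77 CPM (SD, n = 4), with a log2 change of -1.48 (edgeR adjusted p = 1.20e-08). Ecsit and Tmem70 had log2 changes of -1.36 and -1.21, and Foxred1, chosen like these by its p, of -0.73. Acad9 and Ecsit thus fell by more than the structural median of -1.22 in wild type, unlike every Ndufaf gene. The factor that did not pass under either label was Dmac1, with a log2 change of -0.08 in wild type.

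The complex I genes of mitochondrial DNA fell as well. All 5 that were tested were lower under both labels, with medians of -1.51 and -1.54, and mt-Nd3 and mt-Nd4l did not pass the filter. mt-Nd2 fell from 11500 ± 1230 CPM (SD, n = 3) in WT normal to 3080 ± 698 CPM (SD, n = 4) in WT UUO. The share of all counts from mitochondrial DNA was 8.07% to 10.04% in the 6 normal and 3.41% to 4.93% in the 8 obstructed libraries. These values come from libraries made by selecting messenger RNA by its tail, and levels of mitochondrial genes are relative to that selection.

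Subunits of the other respiratory complexes fell slightly more than those of complex I. All 38 nuclear subunits of complexes II to V were lower under both labels, with medians of -1.33 in WT UUO and -1.48 in SMOC2 UUO. Medians in wild type were -1.55 for complex II, -1.45 for complex III, -1.29 for complex IV and -1.33 for complex V. Uqcrfs1, the Rieske iron-sulfur protein of complex III, fell from 370 to 106 CPM, and Sdhb, the iron-sulfur subunit of complex II, from 560 to 171 CPM. The mean log2 CPM of the structural genes was below that of complexes II to V by 1.22 to 1.36 in normal libraries and by 1.07 to 1.18 in obstructed ones.

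The difference between subunits and assembly factors had a counterpart in complex IV. Its 10 nuclear subunits were all lower, with a median of -1.29 in wild type, while 15 of 16 assembly factors of complex IV were lower, with a median of -0.59. Cox15 and Cox10, enzymes of heme A synthesis, had log2 changes of -1.20 and -0.82. Of 77 genes of the mitochondrial ribosome, 64 were lower and 1 higher (Mrpl33), with a median of -0.62. All 14 genes of the tricarboxylic acid cycle were lower, with a median of -1.43.

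Regulators of mitochondrial biogenesis moved in both directions in WT UUO, with 10 of 14 lower and 2 higher. Esrra and Esrrb, estrogen-related receptors, had log2 changes of -1.35 and -2.11, and Ppargc1a, the coactivator that works with them, fell from 146 ± 26.9 CPM (SD, n = 3) to 57.7 ± 6.54 CPM (SD, n = 4). Polrmt, the mitochondrial RNA polymerase, had a log2 change of -0.69. The genes that rose were Pprc1, a coactivator related to Ppargc1a (log2 0.77), and Nrf1 (log2 0.22, edgeR adjusted p = 0.0274), both named here because they are the only 2. Yy1 and Gabpb1 did not pass, with log2 changes of -0.17 and -0.13. In SMOC2 UUO 9 of 14 were lower and 2 higher.

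**Figure D5:**
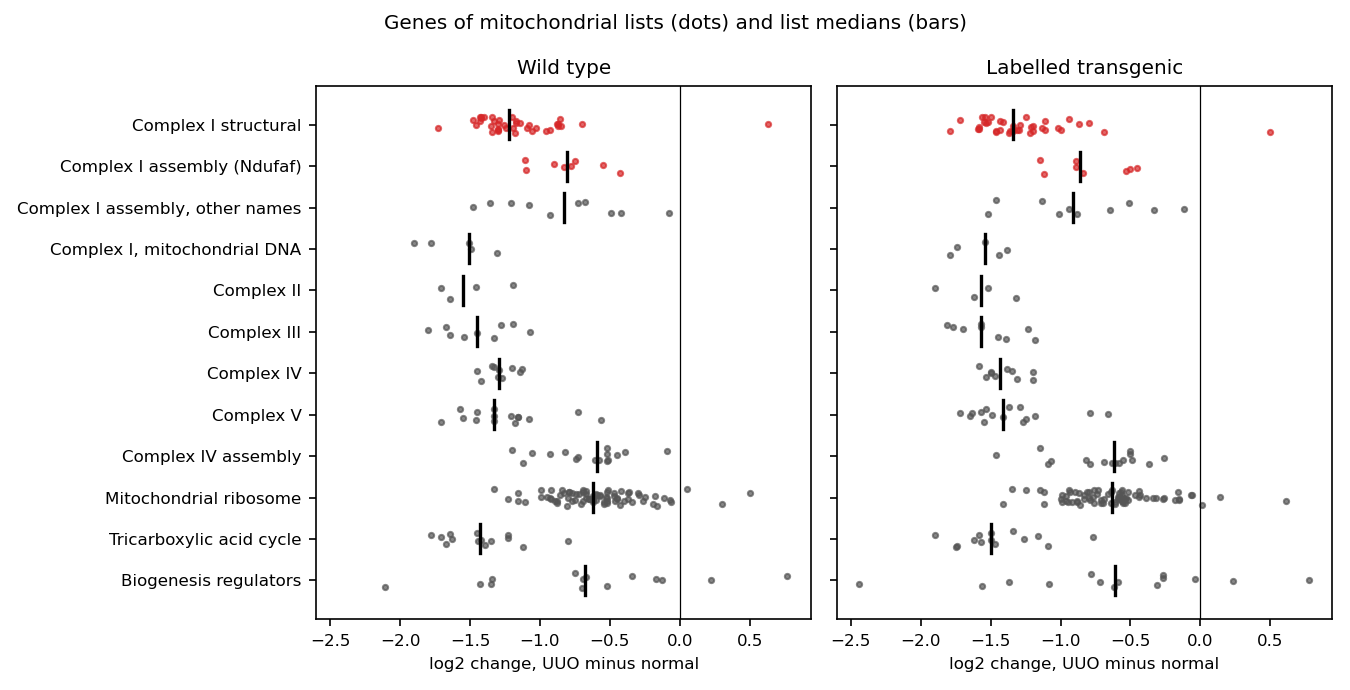
Log2 change after obstruction (horizontal axis) of each gene tested in 12 mitochondrial lists, for wild type (left) and the libraries labelled transgenic (right), with the list median as a bar and the 46 members in red. In wild type the medians of the Ndufaf genes (-0.81), complex IV assembly (-0.59) and the mitochondrial ribosome (-0.62) lie nearer to 0 than those of the structural lists.

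Counts of some members are uncertain. A stretch of at least 200 bases with at least 95% identity in another annotated gene was found for 8 of 46: Ndufa12, Ndufab1, Ndufb11, Ndufb3, Ndufb4, Ndufs3, Ndufs5 and Ndufs6. The copy of Ndufa12, Gm15920, itself held 10218 counts over all libraries, and the others held 929 or fewer where they had a row. Among the rows with the same prefixes, 4 are processed pseudogenes with 0 to 13 counts per library: Ndufa11b, and the copies Ndufab1-ps, Ndufb4c and Ndufs6b. Exon bases are shared with a gene on the opposite strand in 17 members, among them Ndufb6 (39.0%) and Ndufa13 (30.0%).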

How the data were processed

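Messenger RNA of whole kidney was sequenced in 14 libraries. The kidneys had been frozen, and the library kit was strand-specific for messenger RNA, per the labels' protocols. STAR 2.4.1d, featureCounts 1.4.4 (Subread) and build mm10 are listed, per the submitters' processing notes, whereas strand setting and annotation were not given in the sources used here. Each of the deposited tables holds whole-number counts by gene that the authors did not normalize.

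Symbols and coordinates came from GENCODE M21 on GRCm38, which matched 47310 of 47729 genes. The members and gene lists were chosen with earlier results of these data known. In R 4.3.3, edgeR 4.0.16 fitted the 4 group means to all 14 libraries, with 17926 genes kept by filterByExpr, trimmed mean of M-values scaling, the quasi-likelihood test and Benjamini-Hochberg adjustment over all genes tested. A gene rose, fell or changed at an adjusted p under 0.05, and intervals cover 95%. CPM are relative to the scaled library size, class means use log2 CPM with a prior count of 2, and levels per kilobase divide by the median length of the gene's basic protein-coding transcripts. Near-identical copies were sought with BLAST. The code was tested on simulated counts. The values of 1 member are not reported here, though it is part of all counts and medians. All members could be named, with values per library for core subunits, assembly factors, Ndufa4, Ndufa4l2, Ndufab1 and the 3 largest and 3 smallest structural falls at 10 CPM or more, and up to 4 genes of each other list by p. Tried as alternatives were 2 other scalings (median-ratio, upper-quartile), other filters (none, or 50 counts in 3 libraries), DESeq2 1.42.0, limma-voom (limma 3.58.1), a replicate block, only the groups compared, other class definitions and each library left out.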

Additional observations from a re-analysis of the deposited data

Results flagged for a closer look

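The levels of 46 genes, 2 class means and their difference were checked for a library far from the other 3 in each of the 2 groups of 4, 98 checks in all, of which chance would mark about 1 in 20. There were 4 such values. In SMOC2 UUO library 3, Ndufa3 was at 76.5 CPM (others 60.3 to 62.7), Ndufa6 at 154 CPM and Ndufab1 at 37.5 CPM (others 32.6 to 33.0), each above the other libraries of the group. In WT UUO library 2, Ndufaf5 was at 11.4 CPM, below the other 3 (15.7 to 16.3).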

How the results depend on the processing

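Of 1380 results for single members in the obstruction comparisons under the alternatives, 1368 kept their direction and their side of the threshold and 0 reversed. Over all alternatives 35 to 37 structural genes were lower under either label, the former where Ndufa4, Ndufa4l2 and Ndufab1 were left out. The count of structural genes higher in WT UUO, 0 as reported, was 1 (Ndufa4l2) with upper-quartile scaling, with the replicate block and without WT UUO library 1, so leaving out single libraries gave 0 to 1. Upper-quartile scaling moved the assembly median to -0.70 in wild type and -0.75 in the libraries labelled transgenic, and that of all genes to 0.157 and 0.152. With assembly factors of other names included, 17 of 18 were lower under either label. Leaving out single libraries gave assembly medians of -0.17 to 0.07 for the labels in normal kidney and -0.13 to 0.06 for the interaction, the outer values 0.07 and -0.13 without WT normal library 2. Ndufaf2 lost its call in wild type with upper-quartile scaling (log2 -0.32, edgeR adjusted p = 0.107), without WT normal library 2 and without WT UUO library 2, 3 or 4 (edgeR adjusted p = 0.0533 to 0.0629), and in the libraries labelled transgenic with upper-quartile scaling (log2 -0.34, edgeR adjusted p = 0.0935), without SMOC2 normal library 3 and without SMOC2 UUO library 1 (edgeR adjusted p = 0.0781). The adjusted p of Ndufaf2 in wild type ran from 0.0210 to 0.237 over the alternatives, and that of Ndufa4l2 from 0.0118 to 0.250. The cause of these shifts was not tested. No member was called between labels or in the interaction under any alternative, while the count of all genes ranged widely: DESeq2 called 174 in normal kidney, 750 in obstructed kidney and 25 in the interaction, against 5, 149 and 0, and leaving out single libraries gave 5 to 21, 29 to 158 and 0 to 2. Libraries with the same number did not deviate together (correlations -0.0898 to 0.132), so the numbers were not taken as pairs. The replicate block changed no member's call other than that of Ndufa4l2 in wild type (log2 0.72). How far depth limits single members was not tested.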
